A study of Mus musculus with 4 samples.

Results

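The genes Dio2, Maoa, Ckb and Cdk18, which act in thyroid hormone, amine, energy and kinase biology, were followed in mouse macrophages cultured with or without transforming growth factor beta 2 (TGFb2). They were taken because their signals were lower with TGFb2 on these arrays, so their own differences are a description and carry no test. Every probe set annotated with exactly one of the 4 symbols was used, which gave 4 of the 8252 genes named on the array and 6 of its 12488 probe sets: 1 each for Dio2, Ckb and Cdk18, and 3 for Maoa. All cells came from female BALB/c mice aged 6 to 8 weeks that had received 2 ml of 3% thioglycolate into the peritoneal cavity 4 days before harvest, an irritant that recruits macrophages. The cells were then kept overnight in serum-free RPMI medium with an ITS supplement, with PBS in 2 samples and with porcine TGFb2 in 2 samples. The labels give 5 ng of TGFb2 with no volume. Only adherent cells were collected, of which over 95% carried the macrophage surface protein F4/80, per the labels. Whether the 2 samples of a group came from separate animals or cultures is not stated, so the spread between them may be technical.

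Dio2 is type 2 iodothyronine deiodinase, a selenoenzyme that removes an iodine atom from the prohormone thyroxine and so makes the active hormone triiodothyronine inside the cell. Its gene is a classical target of cyclic AMP signalling, and its protein is short-lived because ubiquitin marks it for destruction. Maoa is monoamine oxidase A, a mitochondrial flavoenzyme that oxidises serotonin, noradrenaline and dopamine and releases hydrogen peroxide. In human monocytes it is known as a gene that rises with interleukin 4 and interleukin 13. Ckb, the brain-type creatine kinase, passes phosphate between ATP and creatine in the cytosol and buffers ATP where demand is local, as at the actin cytoskeleton of phagocytosing macrophages. Cdk18, also called PCTAIRE kinase 3, belongs to a branch of the cyclin-dependent kinases that is not known for driving the core cell cycle.

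The start sites of the 4 genes differ in layout in the reference. The 250 bases upstream of each start are shown because the 4 genes moved in one direction, and they come from the RefSeq promoter table for GRCm38.p6, where all 4 matched with 1 start each. They are written 5′ to 3′ along the gene, with capitals at each match, on either strand, to the TATA box (TATAAA), the CCAAT box, the GC box (GGGCGG), the core of the cyclic AMP element (TGACG), the short Smad boxes (GTCTG and CAGACA) and the core of the nuclear receptor site (GGTCA).
Dio2, chr12:90739039-90739288, minus strand: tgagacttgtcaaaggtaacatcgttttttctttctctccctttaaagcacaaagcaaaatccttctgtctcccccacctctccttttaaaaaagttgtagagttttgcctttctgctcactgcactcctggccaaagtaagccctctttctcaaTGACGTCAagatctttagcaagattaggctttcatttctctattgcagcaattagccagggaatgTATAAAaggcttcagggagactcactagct
Maoa, chrX:16619448-16619697, plus strand: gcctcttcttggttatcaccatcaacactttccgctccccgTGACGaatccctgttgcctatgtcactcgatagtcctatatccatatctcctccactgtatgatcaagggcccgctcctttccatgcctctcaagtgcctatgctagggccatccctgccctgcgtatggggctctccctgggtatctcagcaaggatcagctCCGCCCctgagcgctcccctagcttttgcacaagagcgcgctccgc
Ckb, chr12:111672339-111672588, minus strand: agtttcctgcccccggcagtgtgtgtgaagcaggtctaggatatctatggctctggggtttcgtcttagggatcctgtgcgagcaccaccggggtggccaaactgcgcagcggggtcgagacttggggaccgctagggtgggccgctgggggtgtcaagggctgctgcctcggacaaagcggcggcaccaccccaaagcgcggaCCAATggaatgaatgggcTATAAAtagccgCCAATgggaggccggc
Cdk18, chr1:132139686-132139935, minus strand: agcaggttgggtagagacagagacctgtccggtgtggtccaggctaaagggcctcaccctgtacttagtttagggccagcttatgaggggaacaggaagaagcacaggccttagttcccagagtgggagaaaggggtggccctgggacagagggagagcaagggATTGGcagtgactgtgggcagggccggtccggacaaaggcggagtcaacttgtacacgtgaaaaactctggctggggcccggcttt

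In the Dio2 window, TGACG matched on both strands, the matches overlapping by their middle bases at positions -95 to -88 from the start, which together spell TGACGTCA, the palindrome known as the cyclic AMP response element. That palindrome, looked up after the sequence had been seen, stands in 508 of the 32851 windows of 250 bases in the table, or 1.55%, and in none of the other 3 windows here. A TATAAA lies at -30 to -25. The Maoa window holds no TATAAA but a TGACG at -209 to -205 and a GGGCGG on the opposite strand at -46 to -41. The Ckb window has a TATAAA at -28 to -23 between CCAAT boxes at -46 to -42 and -16 to -12. The Cdk18 window has 1 CCAAT on the opposite strand at -86 to -82 and no TATAAA. Over all windows, TATAAA is found in 12.4%, CCAAT in 33.8%, GGGCGG in 32.7% and TGACG in 17.8%. GTCTG stands in 42.2% of windows, CAGACA in 17.1% and the nuclear receptor core in 35.2%, and none of the 4 windows shown holds any of them. Every CAGACA also holds GTCTG on the opposite strand, so their shares overlap. Smad sites shorter than these letters were not searched. GC content was 41.6% for Dio2, 56.8% for Maoa, 62.8% for Ckb and 58.4% for Cdk18, against a median of 52.4% over all windows. The matches are letters in these windows only and were not tied to the array values.

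Array values are MAS5 signals, a background-corrected brightness per probe set on a linear scale. Of the 6 probe sets, 4 had a mean over the arrays of at least 25, the 40th percentile of all probe sets, below which none was tested. The other 2 were dim probe sets of Maoa. Log2 differences are TGFb2 minus PBS on log2(signal + 15.0), which understates changes of dim probe sets, and are given with the standard error (SE) of a limma fit over all 4 arrays, n = 2 per group throughout.

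Dio2 had signals of 450 and 262.3 on PBS replicates 1 and 2 and of 91 and 72.1 on TGFb2 replicates 1 and 2. The groups did not overlap, although the PBS arrays differed from each other by 1.72-fold. The means were 356 ± 133 and 81.6 ± 13.4 (SD), so that 22.9% of the PBS signal remained. The log2 difference was -1.90 ± 0.26 (SE). Dividing each PBS array by each TGFb2 array gave ratios from 2.88 to 6.24.

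Maoa had signals of 878.4 and 783.9 with PBS and of 450.2 and 419.8 with TGFb2 in its bright probe set. Both TGFb2 arrays were below both PBS arrays, and arrays of the same group lay within 1.12-fold of each other. The means were 831 ± 66.8 and 435 ± 21.5 (SD), with 52.3% of the signal remaining and a log2 difference of -0.91 ± 0.15 (SE). The other 2 Maoa probe sets did not measure the gene at a usable level. One read 8.1 and 8.3 with PBS and 3.7 and 0.3 with TGFb2, and the other read 2.1 and 2.5 with PBS and 8.5 and 5.2 with TGFb2. Their identifiers end in _f_at, a suffix of probe sets that can share probes with related sequences. They differed in opposite directions, all 8 values lay under the filter level of 25, and no fold is given for them. The lower Maoa signal with TGFb2 therefore rests on 1 probe set.

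Ckb had signals of 2696.2 and 2935.7 with PBS and of 1308 and 1575.9 with TGFb2. No TGFb2 value reached either PBS value. The means were 2816 ± 169 and 1442 ± 189 (SD), 51.2% of the signal remaining, with a log2 difference of -0.96 ± 0.14 (SE).

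Cdk18 had signals of 828 and 727.8 with PBS and of 383.9 and 316 with TGFb2. The groups were again apart, with arrays of the same group within 1.21-fold of each other. The means were 777.9 ± 70.9 and 349.95 ± 48.0 (SD), 45.0% of the signal remaining, with a log2 difference of -1.12 ± 0.17 (SE).

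**Figure D1:**
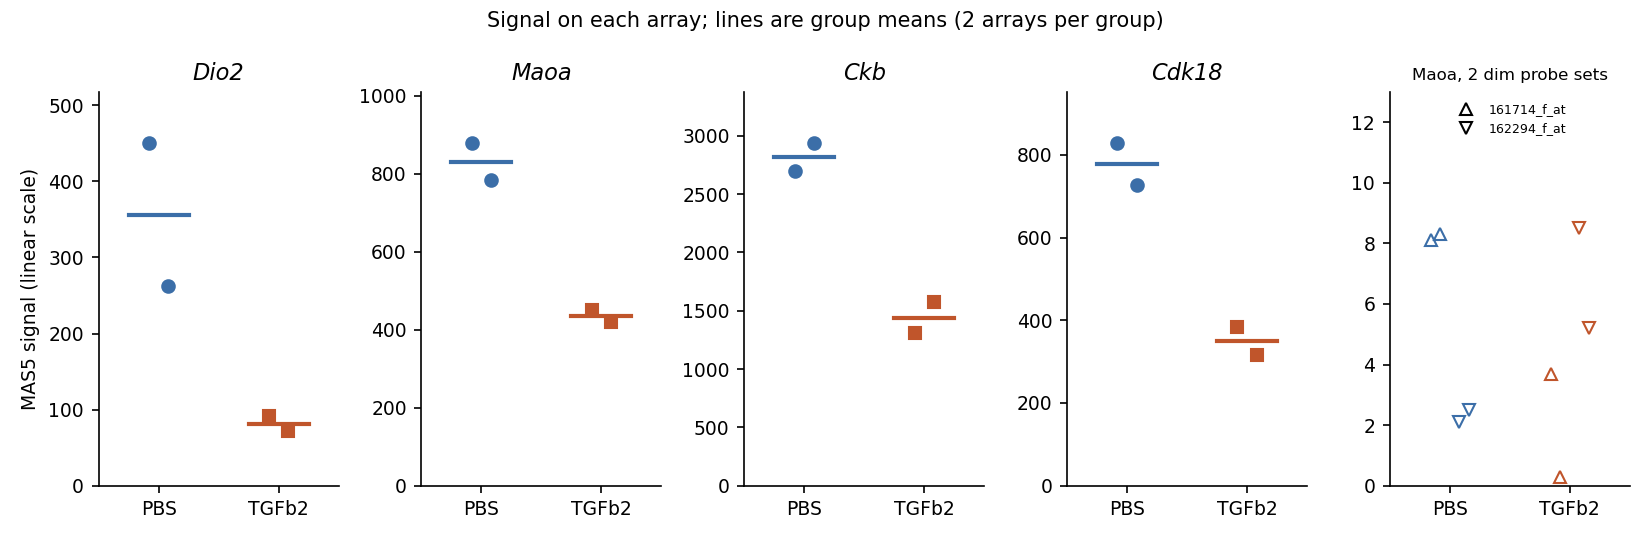
MAS5 signal on a linear scale starting at 0 for each array, PBS as blue symbols and TGFb2 as orange symbols, with a panel per gene, lines at the group means, and a last panel for the 2 dim Maoa probe sets. In the first 4 panels both TGFb2 arrays lie below both PBS arrays, while the dim Maoa probe sets stay under 9 and differ in opposite directions.

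In size, Dio2 stood apart from the other 3. Its smallest ratio of a PBS array to a TGFb2 array, 2.88, was above the largest ratio of Cdk18 (2.62), Ckb (2.24) and Maoa (2.09). The order from the largest difference was Dio2, Cdk18, Ckb and Maoa, and the last 3 lay within 0.21 of each other on the log2 scale, less than the 0.23 that the standard errors of Cdk18 and Maoa give together, so their order is not resolved. Among the 7462 tested probe sets, ordered from the largest decrease, Dio2 ranked 5, Cdk18 43, Ckb 79 and Maoa 93. All 4 tested members were lower on both TGFb2 arrays than on both PBS arrays, as were 21.8% of all tested probe sets, and since the members were chosen from this contrast their count is no further evidence. The replicates varied in a pattern of their own: Dio2, Maoa and Cdk18 were higher on replicate 1 than on replicate 2 in both groups, and Ckb was higher on replicate 2 in both. Leaving out PBS replicate 1, the highest array for Dio2, brought its difference to -1.53, and leaving out PBS replicate 2 brought it to -2.27.

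The pathway neighbours of the members were then compared, from lists of genes chosen for their roles, with the members left out of every count. Genes passed here at a limma adjusted p of 0.05 (Benjamini-Hochberg over all 7462 tested probe sets), which 1.17% of tested probe sets did in either direction, 0.804% higher and 0.362% lower. Each gene counts by its brightest tested probe set, and the median difference over all 5640 tested genes was 0.0023.

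Thyroid hormone genes other than Dio2 showed 0 of 10 tested past the threshold, with a median difference of -0.0034. The thyroid hormone receptor Thra read 125.1 and 130.6 with PBS and 120.3 and 117.9 with TGFb2, a log2 difference of -0.09 ± 0.17 (limma adjusted p = 0.90). The receptor Thrb was dim, at 11.7 and 12.3 with PBS and 31.7 and 24.6 with TGFb2, and was not tested. Dio1, the deiodinase of liver and kidney, gave 0.9 and 3.7 with PBS and 1.2 and 5.5 with TGFb2, below the filter on every array. Wsb1, part of a ubiquitin ligase that targets the Dio2 protein, had means of 744 and 601 (difference -0.30, adjusted p = 0.53; -0.18 without PBS replicate 1). The coactivator subunit Med1 had means of 103 and 79.9 (-0.33, adjusted p = 0.62), with differences from -0.13 to -0.52 when either TGFb2 array was left out. In the list of selenoproteins and the machinery that inserts selenocysteine, the amino acid at the active site of Dio2, 1 of 13 rose, 0 fell and the other 12 stayed short of the threshold, with a median of 0.04. The 13 include Selenbp1, a selenium-binding protein of neither kind (0.37, limma adjusted p = 0.53). The gene that rose was Sephs2, which makes the selenium donor for selenocysteine and is itself a selenoprotein. It read 110 and 113.6 with PBS and 254.7 and 289.4 with TGFb2, a log2 difference of 1.18 ± 0.17 (limma adjusted p = 0.0325), opposite in direction to Dio2. Its call was lost with any single array left out (adjusted p 0.090 to 0.104).

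Genes of monoamine synthesis, transport and breakdown other than Maoa gave 0 of 15 past the threshold, with a median of -0.03. The aldehyde dehydrogenase Aldh1a1 was counted by a probe set at 0.23 (limma adjusted p = 0.80). Its other tested probe set read 78.5 and 31.5 with PBS and 1.9 and 11.5 with TGFb2 (-1.64, adjusted p = 0.16). Aldh2, the mitochondrial aldehyde dehydrogenase that takes up the aldehydes formed by monoamine oxidases, differed by 0.03, 0.21 and 0.24 in its 3 tested probe sets (limma adjusted p = 0.97, 0.62 and 0.66). Slc6a2, a noradrenaline transporter, read 77.2 and 42.3 with PBS and 47.6 and 13.7 with TGFb2, groups that overlapped (-0.78, adjusted p = 0.53). Its difference was -0.22 without TGFb2 replicate 2 and -1.34 without TGFb2 replicate 1. The aldehyde dehydrogenase Aldh9a1 had means of 219 and 144 (-0.56, adjusted p = 0.27). Among receptors for monoamines, 1 of 12 rose and 0 fell, with a median of 0.12. The serotonin receptor Htr2b read 55.6 and 60.9 with PBS and 302.9 and 317.5 with TGFb2, a log2 difference of 2.15 ± 0.17 (limma adjusted p = 0.00303). A receptor for serotonin was higher in the same samples in which an enzyme that breaks serotonin down was lower. The other 11 tested receptors did not pass, and a link between Htr2b and Maoa was not tested. Of 9 tested polyamine genes, 0 passed, with a median of 0.13. Arg1, arginase 1, had means of 357.5 and 873 (1.26, adjusted p = 0.066). It passed in 2 of 14 alternative settings, among them without PBS replicate 2 (adjusted p = 0.0403). Dhps, which modifies a translation factor with spermidine, had means of 41.3 and 10 (-1.14, adjusted p = 0.22).

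Genes of creatine and adenylate energy transfer other than Ckb gave 0 of 17 past the threshold, with a median of 0.12. The muscle creatine kinase Ckm had signals of 58.5 and 12 with PBS and 51 and 7 with TGFb2, so that its arrays differed more within a group than between groups. The mitochondrial creatine kinases Ckmt1 and Ckmt2 were below the filter in all 5 of their probe sets. Gatm, the first enzyme of creatine synthesis, read 362 and 347.3 with PBS and 591.6 and 694.5 with TGFb2, a log2 difference of 0.83 ± 0.16 that did not pass (limma adjusted p = 0.066). It passed in 1 of 14 alternative settings, that with the replicate number as a block. Both of its TGFb2 arrays were above both PBS arrays, as for 21.1% of all tested probe sets and in the opposite order to Ckb. Gamt, the next enzyme of the pathway, differed by 0.02 and 0.12 in 2 probe sets (adjusted p = 0.98 and 0.88), and the creatine transporter Slc6a8 by 0.12 ± 0.18 (adjusted p = 0.86). Ampd3, an AMP deaminase, read 158.7 and 248.9 with PBS and 96.9 and 172.3 with TGFb2 (-0.56, adjusted p = 0.53). The groups overlapped, and its difference was -0.19 without TGFb2 replicate 1 and -0.94 without TGFb2 replicate 2.

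Of 22 tested cyclin-dependent kinases and cyclins besides Cdk18, 0 passed, with a median of -0.02. The nearest relative of Cdk18 with a tested probe set was Cdk16, which read 172.1 and 142.4 with PBS and 195.7 and 153.3 with TGFb2, a difference of 0.13 ± 0.20 (limma adjusted p = 0.85). Cdk14 had tested probe sets that disagreed, at -0.53 ± 0.23 and 0.20 ± 0.28 (adjusted p = 0.44 and 0.84), and Cdk5 differed by 0.27 ± 0.19 (adjusted p = 0.65). Cyclin D1 (Ccnd1) read 81.9 and 57.1 with PBS and 9.1 and 41 with TGFb2 in its brighter probe set (-1.19, adjusted p = 0.29) and differed by -0.04 in the other (adjusted p = 0.97). The TGFb2 arrays were far apart, so that the difference was -0.58 without TGFb2 replicate 1 and -1.79 without TGFb2 replicate 2. Cyclin A2 (Ccna2) had means of 143 and 87.6 (-0.63, adjusted p = 0.26). Of 19 relatives and partners of the 4 members chosen by role, 13 had a probe set, 9 were tested and 0 passed.

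**Figure D2:**
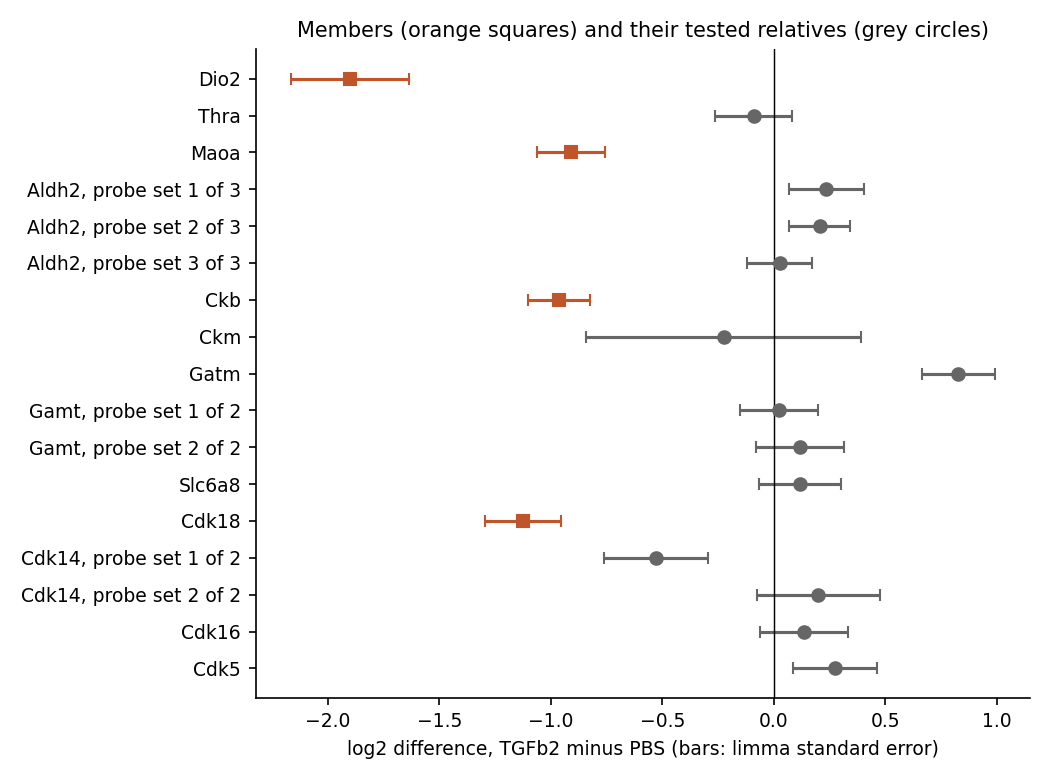
Log2 difference, TGFb2 minus PBS, of the 4 members (orange squares) and of each tested probe set of their relatives and partners (grey circles), with limma standard errors as bars. The members lie between -1.90 and -0.91, the relatives between -0.53 and 0.83, and Gatm lies on the opposite side from Ckb.

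Lists of genes that answer to cyclic AMP and to glucocorticoids were added because Dio2 is a known target of the former and Maoa of the latter. Of 10 tested cyclic AMP and CREB targets besides Dio2, 1 fell and 0 rose, with a median of -0.21. The interleukin 1 receptor antagonist Il1rn fell from 1969.2 and 2342.5 to 710.6 and 961.9, a log2 difference of -1.36 ± 0.18 (limma adjusted p = 0.0242). It lost its call without PBS replicate 2 (adjusted p = 0.060) or TGFb2 replicate 1 (0.097). Of 20 tested glucocorticoid targets besides Maoa, 1 rose and 1 fell by their brightest probe sets, with a median of -0.03. Cdkn1c, an inhibitor of cyclin-dependent kinases, fell from 1252.2 and 1243.3 to 129.3 and 186.8, a log2 difference of -2.89 ± 0.20 (limma adjusted p = 0.00175). The kinase Sgk1 rose from 1656.4 and 1818.9 to 2967.3 and 2898.4, by 0.75 ± 0.12 (limma adjusted p = 0.0400), and lost its call with any single array left out (adjusted p 0.095 to 0.173). Annexin A1 (Anxa1), which restrains inflammation, was just short of the threshold in its brightest probe set, at 5243.2 and 4749.7 with PBS and 3044.2 and 3425.1 with TGFb2, a log2 difference of -0.63 ± 0.12 (limma adjusted p = 0.0573). Its other probe sets passed, at -0.96 (adjusted p = 0.0437) and -1.09 (0.0317), and the brightest one passed after cyclic loess (0.0408) and at a higher filter, the 60th percentile (0.0482). Lower on both TGFb2 arrays than on both PBS arrays, besides the members, were 6 of 10 cyclic AMP targets, 4 of 9 polyamine genes, 9 of 22 cyclin-dependent kinases and cyclins, 3 of 10 thyroid hormone genes and 5 of 20 glucocorticoid targets. The same held for 3 of 15 monoamine genes, 3 of 17 creatine and adenylate genes, 2 of 12 monoamine receptors and 2 of 13 selenoprotein genes, against 21.8% of all tested probe sets. Higher on both TGFb2 arrays were 1 of 10 cyclic AMP targets, 5 of 9 polyamine genes and 4 of 22 cyclin-dependent kinases and cyclins. So were 1 of 10 thyroid hormone genes, 5 of 20 glucocorticoid targets and 2 of 15 monoamine genes. The remaining lists had 7 of 17 creatine and adenylate genes, 2 of 12 monoamine receptors and 5 of 13 selenoprotein genes higher, against 21.1% of all tested probe sets. Whether a list differed from those shares, or a member from the other genes of its list, was not tested.

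**Figure D3:**
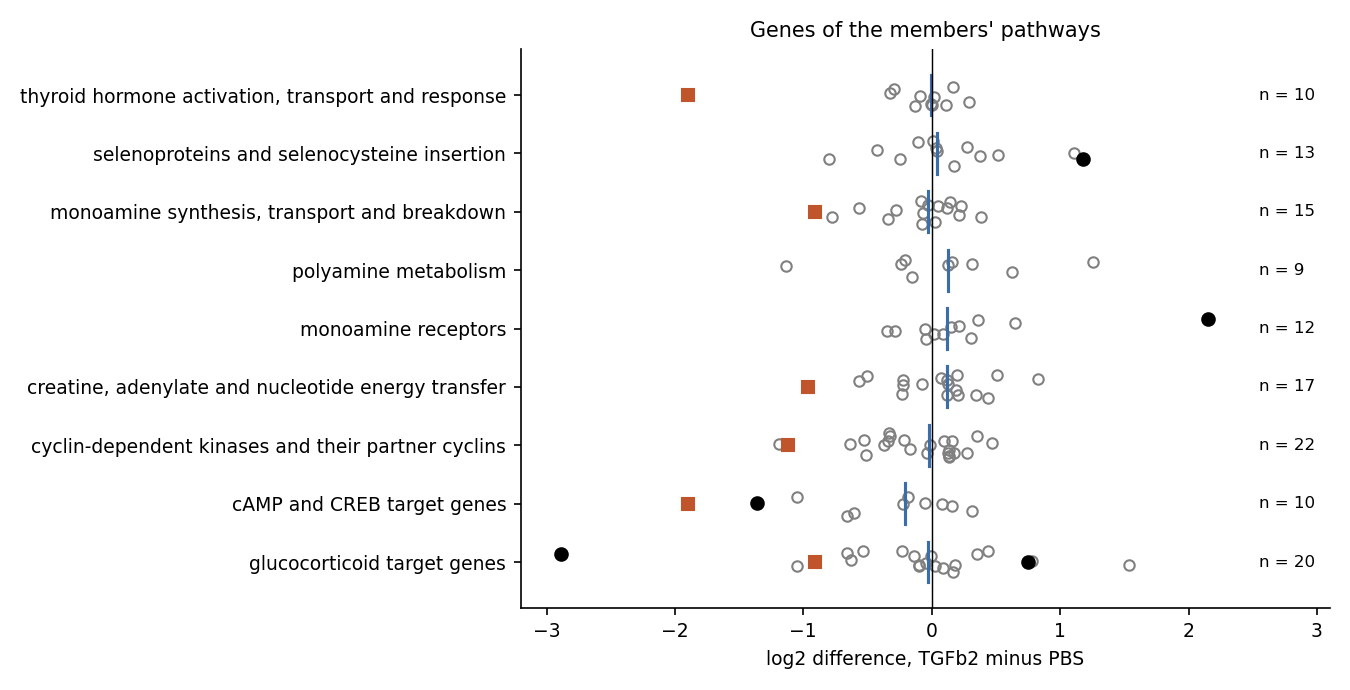
Log2 difference, TGFb2 minus PBS, of every tested gene in 9 lists, one list per line, with members as orange squares, genes past an adjusted p of 0.05 as black dots, other genes as open grey circles, the list median as a blue bar and n as the genes besides the members. Medians lie between -0.21 and 0.13, and the black dots are Sephs2, Htr2b, Il1rn, Cdkn1c and Sgk1.

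Each member was also set against all tested probe sets with a single gene symbol, by the Euclidean distance between the 4 log2 values after each was centred on its own mean. These are descriptions over 4 arrays, and a gene can only lie near a member if it too was lower with TGFb2. The closest to Dio2 were a probe set of the repressor Bach1 (distance 0.28), the matrix proteoglycan decorin (Dcn, 0.29) and the collagen receptor Mrc2 (0.55). Dcn read 1130.5 and 746.8 with PBS and 318.7 and 256.5 with TGFb2, with the higher PBS value on replicate 1 as for Dio2. Closest to Maoa were the chemerin-binding receptor Ccrl2 (0.083), the semaphorin and VEGF co-receptor Nrp1 (0.12) and Fdps of isoprenoid synthesis (0.15). Ccrl2 read 215.6 and 208.4 with PBS and 109.4 and 100.5 with TGFb2. Closest to Ckb were the adaptor Dok2 (0.044), the leukocyte phosphatase Ptprc (CD45, 0.14) and Gas7 (0.15). Dok2 read 249 and 262.4 with PBS and 111.9 and 134.2 with TGFb2, in the same order over the arrays as Ckb. Closest to Cdk18 were a probe set of annexin A1 (Anxa1, 0.050), the gasdermin Gsdme (0.14) and the deubiquitinase Mindy1 (0.14). That Anxa1 probe set read 1209.4 and 1062 with PBS and 565.7 and 485.4 with TGFb2. Of these 12 genes, 6 had other tested probe sets, 8 in all, and each of the 8 differed by less than the one named. Bach1, for example, differed by -0.13 in place of -1.64, and Fdps by -0.19 and -0.07 in place of -0.91. Some of the named probe sets lay under the filter level of 25 on both TGFb2 arrays. They were those of Bach1 (10.6 and 6.2), Mrc2 (13 and 7.3), Fdps (14 and 14.1) and Gsdme (24.5 and 13.8). Among the members themselves, Maoa and Cdk18 were closest to each other (0.25), and Dio2 and Ckb were farthest apart (1.19).

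**Figure D4:**
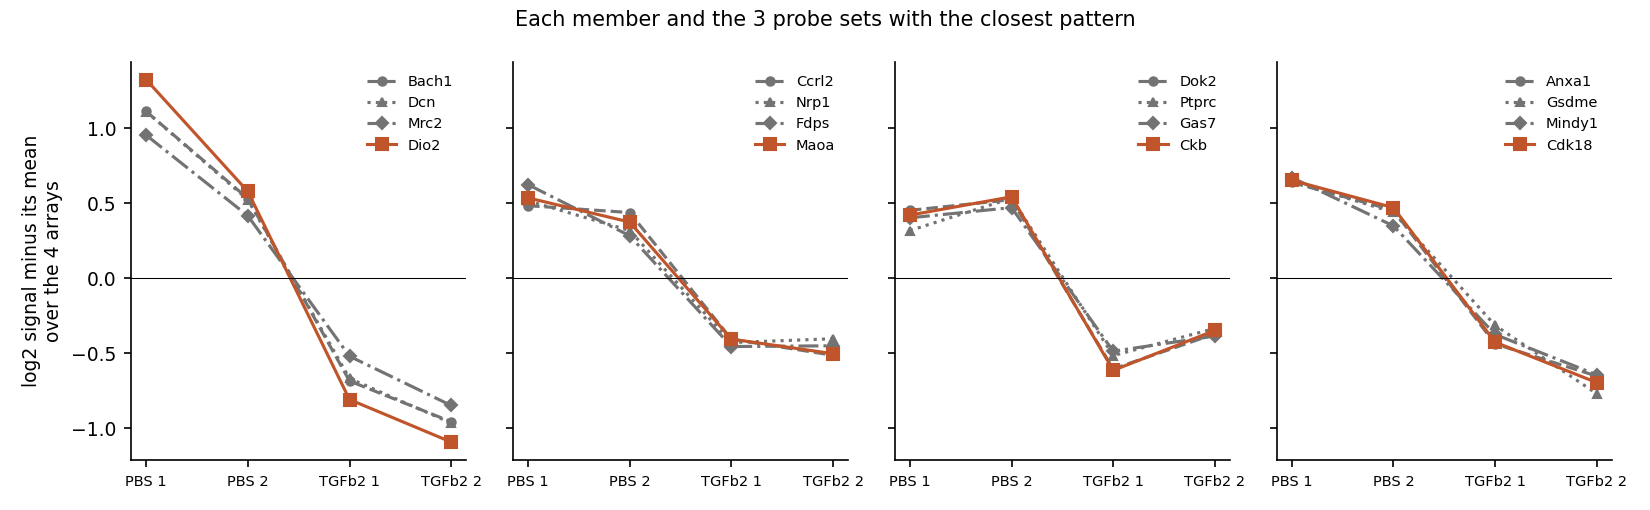
Log2 signal minus its mean over the 4 arrays, for each member (orange) and its 3 closest probe sets (grey), with lines that only join the values of a probe set since replicates have no order. Every profile is above 0 on both PBS arrays and below 0 on both TGFb2 arrays, and those in the Ckb panel are the ones with higher values on replicate 2 than on replicate 1 in both groups.

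Markers were read to see which cells the RNA came from. Of 14 listed macrophage markers, 13 were on the array and 12 tested, with 0 past the threshold. Their summed signal was 26614 to 27014 with PBS and 29641 to 29657 with TGFb2. Of the 12, 7 were higher and 2 lower on both TGFb2 arrays, against 21.1% and 21.8% of all tested probe sets. The F4/80 gene Adgre1 read 488.1 and 779.9 with PBS and 470.9 and 747.7 with TGFb2 (-0.05, limma adjusted p = 0.97). Fcgr1 differed by 1.13 and 1.26 in 2 probe sets (limma adjusted p = 0.066 and 0.055). Of 20 fibroblast and mesothelial markers, 13 were tested, of which 3 rose, 1 fell and the other 9 were not past the threshold. The summed signal was 2386 to 3298 with PBS and 3254 to 3840 with TGFb2. Risen collagen probe sets weigh in that sum, so the amount of such cells is not read from it. One of Col1a1, for example, read 58 and 54 with PBS and 495.1 and 414.9 with TGFb2. The marker that fell was Dcn, one of the 3 genes closest to Dio2, with a log2 difference of -1.63 ± 0.23 (limma adjusted p = 0.0262), a call lost without either TGFb2 replicate (0.097 and 0.095). The markers that rose were Col1a1, Col5a2 and Fbln2, named like the other markers here after their values were seen. Among the 9 that did not pass, differences were below 0 for Pdgfra (-0.78), Upk3b (-0.55), Lum (-0.44) and Col6a2 (-0.05) and above 0 for Col3a1 (0.86), Krt8, Col6a1, Wt1 and Col1a2. Col1a2 was counted by its brightest probe set (0.16). Its other probe set rose from 121 and 82.4 to 415.6 and 389.3 (1.86, limma adjusted p = 0.0179). The fibroblast receptor Pdgfra read 232.6 and 116.9 with PBS and 128.2 and 62.2 with TGFb2, with another tested probe set at 0.25. The mesothelial gene Upk3b read 92.9 and 76 with PBS and 63.4 and 43.2 with TGFb2 (limma adjusted p = 0.42), lower on both TGFb2 arrays as the members were. Msln, Krt19, Krt18, Thy1, Pdgfrb, Fap and Cdh11 had no probe set with a mean of at least 25. Of 3 tested smooth muscle markers 1 rose, Tagln, and of 5 neutrophil markers 1 rose, S100a8, with summed signals of 315 to 355 and 856 to 1076 with PBS and of 442 to 588 and 1621 to 1656 with TGFb2. The smooth muscle marker Acta2 was just short of the threshold, at 78.2 and 66.2 with PBS and 162.2 and 151.2 with TGFb2 (0.98, limma adjusted p = 0.0573). Actg2 differed by -0.28 (limma adjusted p = 0.65). The neutrophil marker Csf3r was counted by its brightest probe set (-0.15). Its other tested probe sets differed by 1.75 (limma adjusted p = 0.0140) and 0.01 (0.99). Of 3 tested mast cell, eosinophil and basophil markers and 6 lymphocyte markers, 0 passed, and the 4 platelet genes on the array were all below the filter. The part of such cells in the lower signals of the 4 members was not tested. In these bulk samples fewer cells of a type and less RNA per cell cannot be told apart.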

How the data were processed

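Biotin-labelled cRNA from 2 PBS and 2 TGFb2 samples was hybridised to Affymetrix arrays. The deposited values are intensities per probe set that the authors computed with MAS5, according to the submitters' processing notes; the version, detection calls and any filter are not given there. Their trimmed means (2% per tail) were 150.1 on every array, so no further scaling was applied. Median signals lay between 40.1 and 45.6, and no 2 arrays were identical.

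From these values, 66 control probe sets were left out, signals were taken to log2(signal + 15.0), 10% of the trimmed mean, and the 7462 probe sets with a mean at or above the 40th percentile (25) entered a limma fit (version 3.58.1, R 4.3.3; lmFit and eBayes with intensity trend; two-sided, Benjamini-Hochberg, 2 residual and 5.6 prior degrees of freedom). The script was tested on simulated data. The number of arrays limits the precision. Gene symbols came from the platform annotation (10833 probe sets with 1 symbol, 396 with several, 1193 with none, the last 2 kinds unnamed), and 10817 were found in the GRCm38.p6 table with 0 changed.

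The members and gene lists were chosen with earlier results of these data known. Named were all probe sets of the members, their relatives and partners, per list up to 3 genes per direction past the threshold or else the 2 with the largest difference, and the 3 probe sets closest to each member. The lists cover thyroid hormone, selenoproteins, monoamines, monoamine receptors, polyamines, creatine and adenylates, cyclin-dependent kinases, cyclic AMP targets, glucocorticoid targets and markers of 7 cell types. Promoter windows were read from the RefSeq table. Alternatives covered the pseudocount, normalization, filter, variance model, replicate block and each array left out. No scan date was at hand to test as a batch.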

Additional observations from a re-analysis of the deposited data

How the results depend on the processing

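The log2 differences of the 4 members kept their sign under all 14 alternatives. They ran from -2.27 to -1.52 for Dio2, -1.26 to -0.99 for Cdk18, -1.10 to -0.83 for Ckb and -0.99 to -0.83 for Maoa. Much of this was fixed in advance. The filter, variance model and replicate block cannot change a difference. With 2 arrays per group and no overlap, leaving 1 out cannot turn the sign or move a difference beyond the spread between arrays. Pseudocount and normalization could have moved the differences further, and there the shifts stayed below that spread. The number of probe sets called, 87 (60 higher, 27 lower), was less stable. It was 56 (37 higher) with a pseudocount of 1, 6 (5 higher, 1 lower) without the filter on dim probe sets and 13 (12 higher, 1 lower) without the intensity trend. With 1 array left out, which gives the remaining array of that group the spread of the others, it ran from 11 to 52, with 7 to 39 higher and 4 to 13 lower. The labels number the replicates but do not say that a number pairs samples; deviations of same-numbered arrays correlated at 0.14 over 7462 probe sets, and with the replicate number as a block 319 passed (180 higher, 139 lower). With that block Gatm passed (adjusted p = 0.0098), so that 1 of the relatives and 1 creatine gene rose in place of 0, and Arg1 (0.00287) and Sat1 passed, so that 2 polyamine genes rose. Gpx3 and Msrb1 rose and Txnrd1 fell among selenoprotein genes, Dusp1 fell in both target lists, and Anxa1 (0.00614) fell, so that 3 glucocorticoid targets fell in place of 1. It moved 6 of the 18 counts of list genes risen or fallen. Of the named list genes, Htr2b and Cdkn1c passed under all 14 alternatives, Il1rn under 10, Sephs2 under 8 and Sgk1 under 7. Il1rn, Sephs2 and Sgk1 did not pass without the filter or without the intensity trend, and Sgk1 also not after median centring (adjusted p = 0.063). List medians ran from -0.26 to 0.22 over the settings, and 6 of the 9 took both signs, so that no direction is read from them: -0.09 to 0.21 for monoamine receptors, -0.08 to 0.08 for thyroid hormone genes and -0.0079 to 0.18 for polyamine genes. The cyclic AMP targets stayed between -0.26 and -0.12, the creatine and adenylate genes between 0.066 and 0.22, and the selenoprotein genes between 0.017 and 0.16. Of the named genes that did not pass, Slc6a2, Ampd3, Ccnd1, Med1, Wsb1, Cdk14, Cdk5 and those with differences near 0 (Aldh2, Ckm, Gamt, Slc6a8, Cdk16) moved by over 1.5 times with 1 array left out. Signal over background was unknown for single probe sets, since no detection calls were used here.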
